A study of Mus musculus with 12 samples.

Results

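The Wnt ligands of gastrulation described here are 8 genes: Wnt3, Wnt3a, Wnt8a, Wnt5a, Wnt5b, Wnt11, Wnt2b and Wnt6. They were chosen by name, as the genes with a probe set annotated to that gene alone, out of 19938 genes on the array. Each of the 8 had 1 such probe set, and all 8 were bright enough on average to be among the 15950 genes tested. They were measured in embryoid bodies, the floating clumps that differentiating mouse embryonic stem (ES) cells form, on 12 Affymetrix Mouse Gene 1.0 ST arrays. The ES cells were A2lox cells of the 129P2/OlaHsd background, which carry a transgene that doxycycline (dox) switches on, and dox was used at 0.5 µg/ml throughout. In the knockdown line dox drives microRNAs against the transcript of Geminin (Gmnn), a nuclear protein that binds the licensing factor Cdt1. This line was given dox from day 0 and collected on day 4, with 3 arrays with dox and 3 without. In the overexpression line dox drives Geminin itself. This line was given dox from day 3. Replicates 1 and 2 were collected on day 5 and replicate 3 on day 4, and each replicate number has a dox array and a control array. The labels tell neither whether a line is 1 clone nor whether equal groups were cultured separately. P-values therefore measure the spread between these arrays alone, and it may be technical. The cells had been kept on irradiated mouse fibroblasts, which were removed before aggregation.

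Wnt proteins are secreted, lipid-modified signals that bind Frizzled receptors. With the co-receptors Lrp5 and Lrp6 they stabilise beta-catenin, which works with TCF and LEF factors on target genes, and other Wnt proteins act mainly through polarity and calcium pathways. In the gastrulating mouse embryo Wnt3 is needed for the primitive streak to form, Wnt8a is expressed in and around the early streak, and Wnt3a maintains paraxial mesoderm progenitors. Wnt5a and Wnt5b are expressed in posterior mesoderm, where Wnt5a acts largely without beta-catenin and in cell movement and axis outgrowth, and Wnt11 acts in cell movements and heart formation. Wnt2b and Wnt6 are better known from later tissues.

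Upstream sequence was available from RefSeq (GRCm38.p6) for 6 of the 8 genes, and that of 3 is shown because the levels of Wnt3 and Wnt5b followed each other over the 12 arrays (Pearson r = 0.94) while those of Wnt3 and Wnt3a did not (r = -0.22). Each run is the 250 bases before an annotated start, 5′ to 3′ on the gene's strand, with CG dinucleotides in capitals.
Wnt3 (chr11:103773925-103774174, plus strand): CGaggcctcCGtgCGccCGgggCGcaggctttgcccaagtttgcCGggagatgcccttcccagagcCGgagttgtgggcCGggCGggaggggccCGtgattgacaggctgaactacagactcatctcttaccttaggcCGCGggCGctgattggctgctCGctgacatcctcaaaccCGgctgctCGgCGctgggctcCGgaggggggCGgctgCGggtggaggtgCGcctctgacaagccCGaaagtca
Wnt5b (chr6:119544348-119544597, minus strand): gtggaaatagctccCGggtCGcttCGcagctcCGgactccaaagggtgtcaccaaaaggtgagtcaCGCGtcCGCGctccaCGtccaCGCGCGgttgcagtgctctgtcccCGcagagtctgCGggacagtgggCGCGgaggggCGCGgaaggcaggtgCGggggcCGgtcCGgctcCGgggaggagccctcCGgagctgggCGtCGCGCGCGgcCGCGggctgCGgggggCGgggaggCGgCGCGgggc
Wnt3a (chr11:59290752-59291001, minus strand): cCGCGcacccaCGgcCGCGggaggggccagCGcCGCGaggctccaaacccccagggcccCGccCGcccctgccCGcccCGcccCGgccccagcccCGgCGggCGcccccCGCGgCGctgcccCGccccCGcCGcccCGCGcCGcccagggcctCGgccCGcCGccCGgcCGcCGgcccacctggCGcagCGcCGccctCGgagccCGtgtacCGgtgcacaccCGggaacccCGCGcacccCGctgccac
All 3 windows were rich in G and C, at 68% for Wnt3, 75.2% for Wnt5b and 87.6% for Wnt3a, against a median of 52.4% over 32851 promoters. They held 22, 35 and 41 CG dinucleotides, against a median of 6. A TCF/LEF motif (CTTTGA or CTTTGT, either strand) stood in none of the 3, and neither did the T-box site AGGTGT (either strand). These letters occur in 27.6% and 11.8% of all promoter windows of this length. Wnt5b has 3 listed starts, and the window shown belongs to the first. The window of its last start held 1 TCF/LEF and 1 T-box motif, as did, for the TCF/LEF motif alone, the first of the 2 Wnt11 windows, and for the T-box motif alone the Wnt2b window. The Wnt3 window lies inside the annotated bounds of Wnt9b, the next protein-coding gene. Wnt3a likewise neighbours Wnt9a, and Wnt6 neighbours Wnt10a.

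Levels below are log2 intensities after quantile normalization, and differences are differences of these. Intensities of different probe sets are not compared with each other. No detection call comes with the values, so a dim flat probe set cannot be told from background. The targeted gene was lower with dox in every equally numbered pair of knockdown-line arrays (-0.67, -0.40 and -0.42 in replicates 1, 2 and 3) and higher in every pair of the overexpression line (1.08, 0.68 and 0.69). By limma it was at -0.50 ± 0.14 and 0.82 ± 0.14, with adjusted p of 0.965 and 0.922, so it was not called either. The labels do not tell if its probe set covers the transgene's RNA. Of 12 primitive streak genes listed, T had no probe set annotated to it alone. The mean level of the other 11 ran from 7.45 to 9.15 in the knockdown line and from 9.07 to 9.96 in the overexpression line. The mean of 12 lateral mesoderm genes ran from 7.52 to 7.76 and from 8.33 to 9.38. Feeder fibroblast genes, 10 of 12 of which passed the filter on low values, had means of 7.49 to 7.94 on all 12 arrays. Postn (5.86 to 6.40) and Lum (4.84 to 6.25) were below the filter level of 6.46, while Col1a1 ran from 8.02 to 9.47. Col1a1 was called higher in replicate 2 than in replicate 1 of the overexpression line (0.79 ± 0.07, limma adjusted p = 0.00329). Whether fibroblast RNA remained was not tested. In bulk samples, fewer cells of a type and less RNA per cell cannot be told apart.

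The 8 genes differed in how far they varied between arrays. Wnt5a had a range of 4.30 log2 units (19.7-fold) over the 12 arrays, more than 99.9% of the tested genes. Wnt8a ranged over 2.23 units (4.71-fold), Wnt3 over 1.62 (3.06-fold) and Wnt5b over 1.36 (2.57-fold). A range of at least 1 unit was seen in 13.8% of all tested genes. Of the others, Wnt2b reached just under 1 unit, more than 86.1% of tested genes, and Wnt3a 0.82, more than 76.6%. Wnt6, at 0.63 (56.4%), was near the middle of all tested genes, and Wnt11, at 0.36, had a wider range than 13.4% of them.

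**Figure D1:**
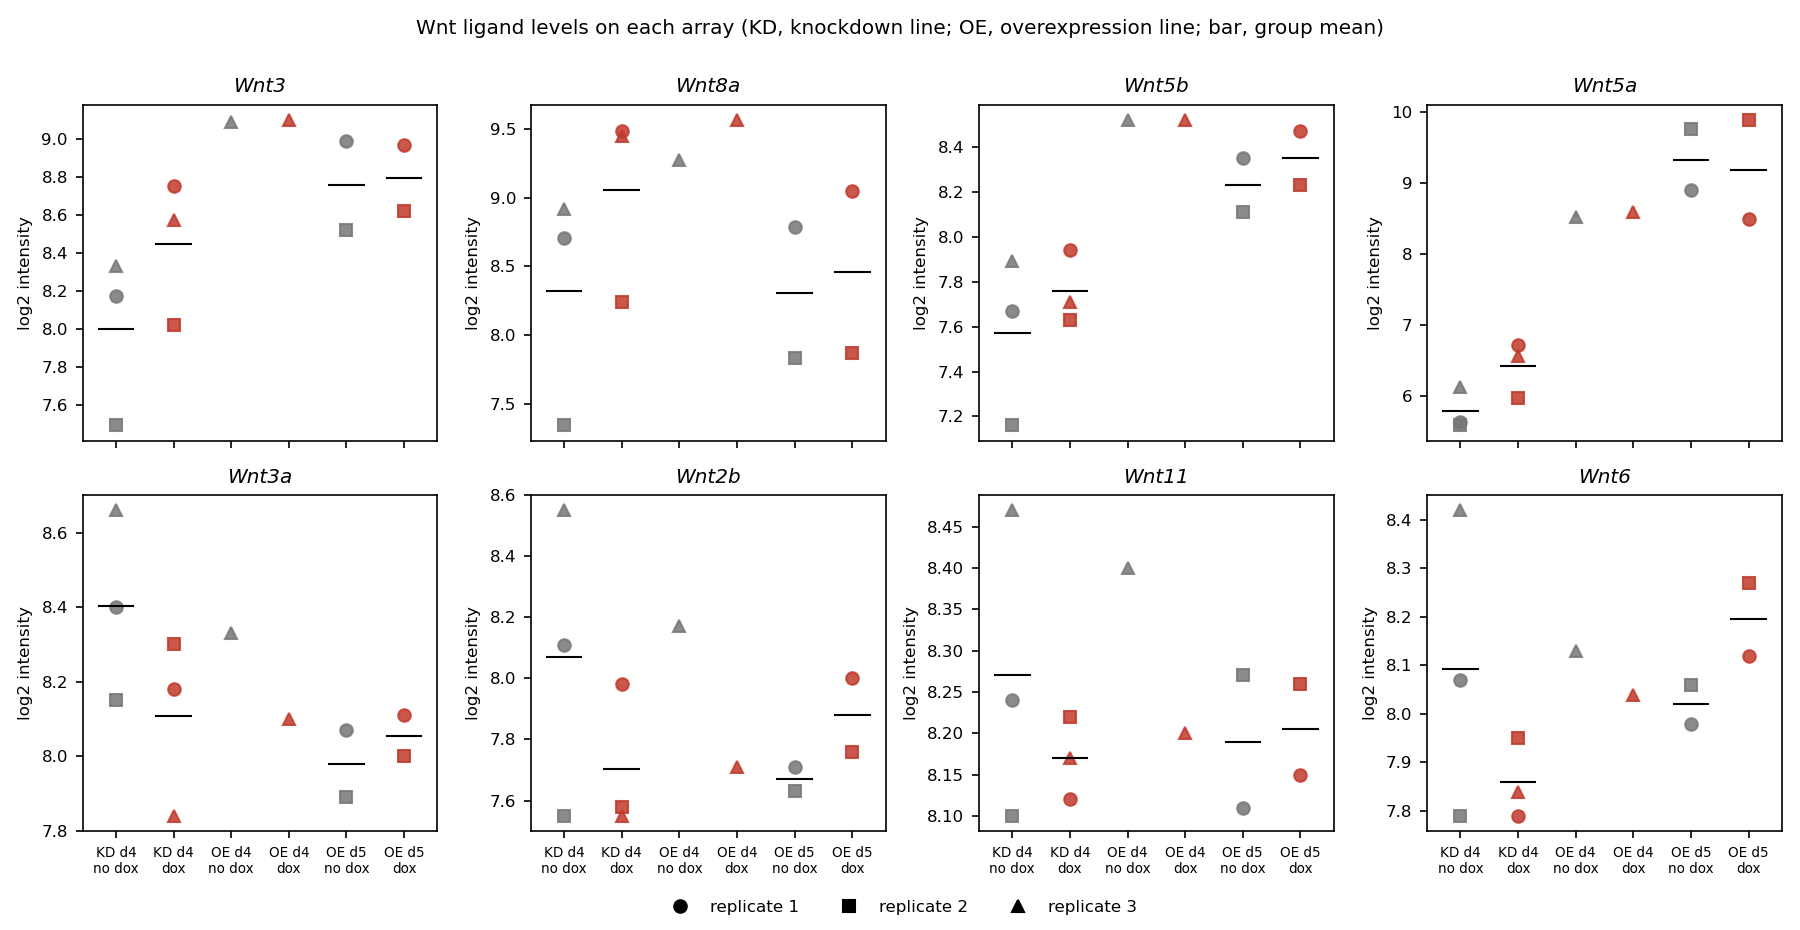
Log2 intensity of each Wnt ligand (vertical axis, own scale per panel) in the 6 groups of line, day and dox (horizontal axis); each point is 1 array, its shape the replicate number, its colour dox (red) or no dox (grey), and bars are means of groups with over 1 array. Wnt5a and Wnt5b stand higher on all 6 overexpression-line arrays than on all 6 knockdown-line arrays, and replicate 2 lies below replicate 1 for Wnt3 and Wnt8a in both lines.

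Wnt3, the streak-inducing ligand (probe set 10381738), stood at 8.17, 7.49 and 8.33 on the knockdown-line arrays without dox and at 8.75, 8.02 and 8.57 with dox, in replicates 1, 2 and 3. The groups overlap, and in both of them replicate 2 is the lowest. In the overexpression line Wnt3 stood at 9.09 without and 9.10 with dox on day 4, and on day 5 at 8.99 and 8.52 without and 8.97 and 8.62 with dox in replicates 1 and 2. Those pairs differed by 0.10 at most, while replicate 2 again lay below replicate 1.

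Wnt8a (10454701), also a canonical streak ligand, stood at 8.71, 7.34 and 8.92 without and 9.49, 8.24 and 9.45 with dox in the knockdown line. Replicate 2 was the lowest in both groups by more than any dox difference, and 2 of the 3 dox arrays lay above all controls. In the overexpression line it stood at 9.28 without and 9.57 with dox on day 4, and on day 5 at 8.79 and 7.83 without and 9.05 and 7.87 with dox. Day 5 replicate 2 was the lowest in this line, with and without dox.

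Wnt5a (10413482), the main non-canonical ligand of the posterior embryo, stood at 5.64, 5.59 and 6.13 without and 6.72, 5.97 and 6.57 with dox in the knockdown line. Of these 6 values 4 are under the filter level of 6.46, so the gene passed the filter on low values through the overexpression line, where it was high. There it stood at 8.52 and 8.60 on day 4 without and with dox, and on day 5 at 8.90 and 9.76 without and 8.49 and 9.89 with dox. Here day 5 replicate 2 was the highest, the reverse of its place for Wnt3 and Wnt8a.

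Wnt5b (10547396), the paralogue of Wnt5a, stood at 7.67, 7.16 and 7.89 without and 7.94, 7.63 and 7.71 with dox in the knockdown line. It stood at 8.52 on both day 4 arrays of the overexpression line, and on day 5 at 8.35 and 8.11 without and 8.47 and 8.23 with dox. All 6 arrays of the overexpression line lay above all 6 of the knockdown line for Wnt5a and Wnt5b alone among the 8 genes, a separation in that direction that 3.15% of tested genes showed.

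Wnt3a (10386376) stood at 8.40, 8.15 and 8.66 without and 8.18, 8.30 and 7.84 with dox in the knockdown line, and between 7.89 and 8.33 in the overexpression line. Wnt2b (10500938) stood at 8.11, 7.55 and 8.55 without and 7.98, 7.58 and 7.55 with dox, and between 7.63 and 8.17 in the overexpression line. Wnt6 (10347491) ran from 7.79 to 8.42 and Wnt11 (10555186) from 8.10 to 8.47 over all arrays. All 4 of these genes were highest on control replicate 3 of the knockdown line, the array with the highest median in the deposited intensities (182.2, against 145.3 to 175.4 on the other arrays). With each array centred on its median instead of quantile normalized, Wnt3a and Wnt2b were still highest there, at 8.54 and 8.43, but Wnt6 and Wnt11 were highest on day 5 arrays of the overexpression line. The part of that array's brightness in these values was not tested further.

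The first comparison was dox against no dox in the knockdown line, where Gmnn was lower with dox in every pair. The series holds no dox-treated arrays without these transgenes. Dox itself, the microRNAs and the Geminin level therefore cannot be told apart. Limma called none of the 8 (Benjamini-Hochberg adjusted p under 0.05 over all tested genes), where 1 gene in all was called (0.00627% of those tested). None had an unadjusted p under 0.05 in this fit, which has no replicate block (with a block, Wnt8a, Wnt3 and Wnt5a did). Of tested genes, 2.17% had one without the block and were higher with dox, and 1.59% were lower. Wnt8a differed by 0.74 ± 0.49 (SE; 95% interval -0.34 to 1.81), Wnt5a by 0.63 ± 0.35 (-0.14 to 1.41) and Wnt3 by 0.45 ± 0.24 (-0.09 to 0.99), each with a limma adjusted p of 0.965. With the block, the 95% intervals of the same differences were 0.52 to 0.95 for Wnt8a, 0.26 to 1.01 for Wnt5a and 0.26 to 0.65 for Wnt3. None of the 3 was called then either (limma adjusted p of 0.159, 0.287 and 0.199). The labels do not tell whether arrays of equal number are paired cultures. These 3 genes were higher with dox in 3 of 3 equally numbered pairs, which 19.5% of tested genes were. The pair differences were 0.59, 0.54 and 0.24 for Wnt3 in replicates 1, 2 and 3. For Wnt8a they were 0.79, 0.90 and 0.52, and for Wnt5a 1.07, 0.38 and 0.44. Cell type markers moved in the same comparison. With dox 11 of 11 streak genes were higher (median 0.67), 11 of 12 pluripotency genes lower (-0.42) and 11 of 12 visceral endoderm genes lower (-0.30). None of these was called, and their part in the ligand differences was not tested. In no member did all 3 dox arrays lie above or below all 3 controls, which 4.97% and 3.25% of tested genes did, and exact two-sided permutation p-values were 0.2 to 0.6 (0.1 is the smallest that 3 against 3 arrays allow).

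The other 5 members had smaller or mixed differences. Wnt5b differed by 0.18 ± 0.17, and its pairs did not share a sign. Wnt2b differed by -0.36 ± 0.24, Wnt3a by -0.30 ± 0.16, Wnt6 by -0.23 ± 0.14 and Wnt11 by -0.10 ± 0.11. In those 4 genes the pair of replicate 3 was the most negative, at -0.82 for Wnt3a, -0.59 for Wnt6 and -0.29 for Wnt11, and the pair of replicate 2 was above 0. Replicate 3 holds the bright control array named above. Without control replicate 2 the difference of Wnt3 was 0.20, that of Wnt8a 0.24 and that of Wnt5b -0.02. Without control replicate 3 that of Wnt2b was -0.12, that of Wnt3a -0.17, that of Wnt6 -0.07 and that of Wnt11 0.00.

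**Figure D2:**
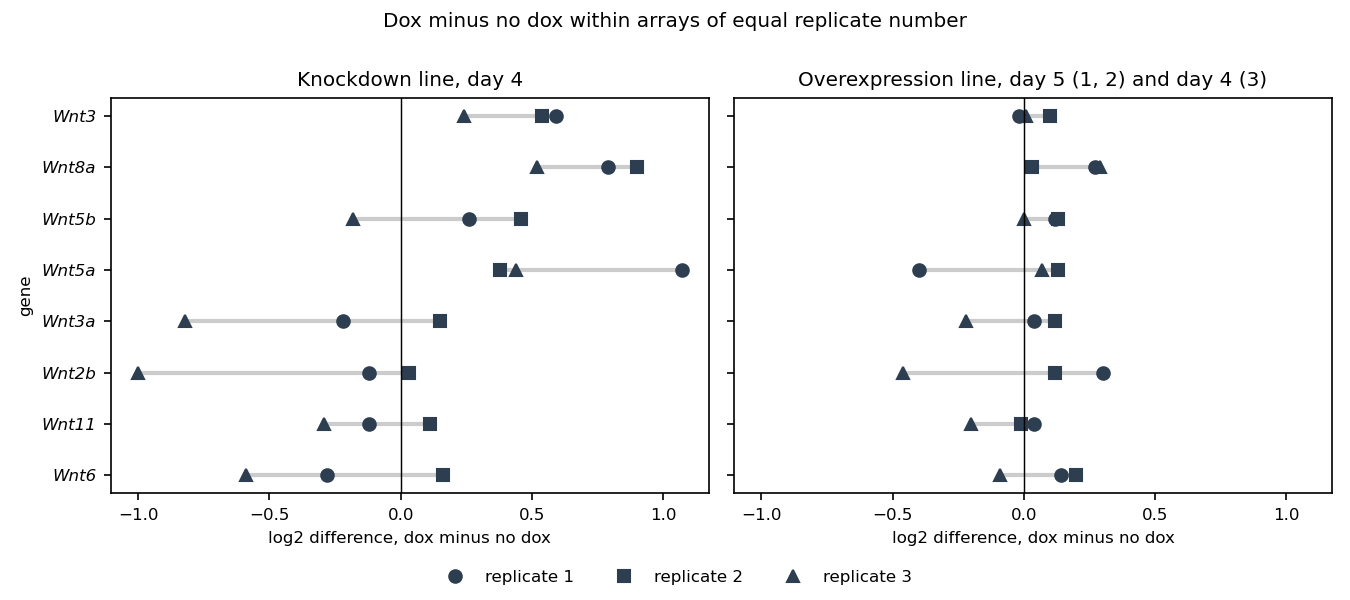
Difference in log2 intensity, dox minus no dox (horizontal axis), between the arrays of equal replicate number for each ligand (vertical axis) in the knockdown line (left) and overexpression line (right); shapes are replicate numbers and grey bars their range. Wnt3, Wnt8a and Wnt5a lie right of 0 in all 3 pairs of the knockdown line, and Wnt8a in all 3 of the overexpression line.

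In the overexpression line Gmnn was higher with dox in every pair, but here too dox itself and the Geminin level cannot be told apart. Dox began on day 3, so replicate 3, collected on day 4, had less time in dox than replicates 1 and 2, collected on day 5. The fit takes 1 dox effect for both days. Limma called none of the 8, again with 1 gene called in all (0.00627%), and none had an unadjusted p under 0.05 (0.345% of tested genes had one and were higher, 0.589% lower). Wnt8a differed by 0.20 ± 0.49 (95% interval -0.88 to 1.28), with pair differences of 0.27, 0.03 and 0.29 in replicates 1, 2 and 3. Wnt5b had pair differences of 0.12, 0.13 and 0.00. In 16.6% of tested genes all 3 pairs were above 0. The other 7 members differed by -0.07 to 0.08, with intervals no wider than that of Wnt5a (-0.84 to 0.71), and exact two-sided permutation p-values were 0.5 to 1 over the 8 genes (0.167 is the smallest possible). For Wnt3 the interval ran from -0.51 to 0.57, so a change of up to about 0.5 log2 units either way is compatible with these arrays. The sign turned when single arrays were left out: without day 5 control replicate 2 (Wnt3 -0.10, Wnt8a -0.06, Wnt5a 0.20), without day 5 dox replicate 1 (-0.07, -0.13 and 0.35), and without either day 4 array (Wnt3a 0.08, Wnt11 0.01, Wnt2b 0.21). No direction is therefore given for these 6 genes. The Wnt3a sign also turned without day 5 control replicate 1 (0.00).

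The difference of both dox effects, knockdown minus overexpression, was called for 0 genes by limma (0%). An unadjusted p under 0.05 was found for 340 genes (1.13% of those tested were higher and 0.997% lower), none of them a member. It was 0.70 ± 0.50 for Wnt5a, 0.54 ± 0.69 for Wnt8a and 0.42 ± 0.35 for Wnt3. Start of dox and collection day differ between the lines too, so this difference does not isolate the Geminin level. Single arrays moved these values: without knockdown-line control replicate 2 that of Wnt8a was 0.05 and that of Wnt3 0.17, without dox replicate 2 of that line 0.95 and 0.64. Over all 12 such fits Wnt5a ranged from 0.28 (without day 5 dox replicate 1) to 1.08 (without day 5 dox replicate 2). For the other 5 members it lay between -0.35 (Wnt2b) and 0.10 (Wnt5b).

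For Wnt5a, Wnt5b, Wnt3 and Wnt8a the difference between the lines was larger than that between dox states, and for the other 4 it was smaller than that with dox in the knockdown line. On day 4 without dox, Wnt5a was 7.01-fold lower in the knockdown line (log2 difference -2.81 ± 0.43 SE; 95% interval -3.76 to -1.86; limma adjusted p = 0.0305), the only member among the 49 genes called in this comparison (0.307% of those tested). At an unadjusted p under 0.05, 3 members were lower (Wnt5a, Wnt5b and Wnt3, where 6.02% of tested genes were) and 0 higher (5.6%). Both day 4 arrays of the overexpression line lay above all 6 knockdown-line arrays for Wnt5a, Wnt5b and Wnt3, as they did for 8.11% of tested genes. Wnt5b differed by -0.90 ± 0.21 (adjusted p = 0.129 in limma) and Wnt3 by -1.08 ± 0.30 (0.193). Wnt8a differed by -1.01 ± 0.60 (0.562), and the other 4 members by -0.06 to 0.18. Exact two-sided permutation within dox states gave p = 0.0625, the smallest possible, for Wnt5a and Wnt5b, and 0.125 for Wnt3 and Wnt8a.

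All 3 knockdown-line controls were under the filter level for Wnt5a and are not shown to be above background, so the 7.01-fold describes the measured values and is no exact fold. The gene entered the test through the arrays where it is high, so its call is not independent of the filter. Set against the filter level itself, the day 4 control of the overexpression line was 2.07 higher (4.2-fold). The overexpression line has 1 day 4 array without dox and 1 with dox, and the fit takes its day 4 level without dox from both. To do so it uses 1 dox effect for both days, which is taken to be the same on each. These day 4 arrays are also taken to vary like the others. Line cannot be told apart from the culture that gave replicate 3. The Wnt5a call was lost without control replicate 1 (-2.74; limma adjusted p = 0.109), control replicate 2 (-2.71; 0.0912) or dox replicate 3 (-2.81; 0.0547) of the knockdown line. It was also lost without the day 4 control (-2.95; 0.897) or dox array (-2.74; 0.208) of the overexpression line. Over all 12 such fits the difference stayed between -3.00 and -2.60. Of the streak genes, 9 of 11 were also lower in the knockdown line at an unadjusted p under 0.05 (2 after adjustment), with a median difference of -1.62 against 0.02 over all tested genes, and 10 of 12 lateral mesoderm genes were lower (2 called; median -0.68). The part of cell makeup in the Wnt5a difference was not tested.

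Day 5 against day 4 in the overexpression line compares replicates 1 and 2 with replicate 3, so day and replicate cannot be told apart. Limma called none of the 8, where 89 genes were called (0.558%), and none had an unadjusted p under 0.05 (7.52% of tested genes had one and were higher, 6.68% lower). Wnt8a was at -1.04 ± 0.52 (95% interval -2.18 to 0.10; limma adjusted p = 0.397), Wnt5a at 0.70 ± 0.37 (-0.13 to 1.52; 0.433) and Wnt3 at -0.32 ± 0.26 (0.647). Both day 4 values of Wnt8a (9.28 and 9.57) are above all 4 day 5 values (7.83 to 9.05), and the same holds for Wnt3 and Wnt5b. How many of all tested genes separate in this way was not counted, so nothing particular to these members is read from it. For Wnt5a 1 of the 4 day 5 arrays, dox replicate 1 at 8.49, lies below both day 4 values.

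Replicates of a group also differed from each other in the ligands, and this was compared by the mean of the control and dox array of each number. In both lines the p-values of these comparisons measure only the spread within such pairs, after the dox effect is removed. They do not measure how far separate cultures vary. In the overexpression line on day 5, replicate 2 minus replicate 1 was -1.07 ± 0.11 for Wnt8a (limma adjusted p = 0.00421), 1.13 ± 0.19 for Wnt5a (0.0148) and -0.41 ± 0.10 for Wnt3 (0.0411). So 3 of 8 members were called, 2 lower and 1 higher, where 13.7% of all tested genes were called. Of the called genes 59.0% were higher in replicate 2, and 84.1% with median centring, which moved the median of all tested genes to 0.12. The Wnt3 call was lost with median centring (-0.22; limma adjusted p = 0.325) and with the deposited values (-0.41; 0.064) or no filter (0.0666). It was also lost without any of 8 of the 12 arrays, where it lay between -0.46 and -0.36: control 1 or dox 1 of the knockdown line, or any of the 6 arrays of the overexpression line (limma adjusted p up to 0.262). Wnt8a lost its call without 3 of the day 5 arrays: control 1 (-1.12; 0.0513), dox 1 (-1.02; 0.0696) and dox 2 (-0.95; 0.0755). Wnt5a lost it without any of the 4: control 1 (1.38; 0.0616), control 2 (1.28; 0.0879), dox 1 (0.88; 0.148) and dox 2 (0.99; 0.158).

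In the knockdown line, replicate 2 minus replicate 1 was -1.31 ± 0.11 for Wnt8a (limma adjusted p = 0.00296) and -0.70 ± 0.10 for Wnt3 (0.0134), and 2 of 8 members were called where 7.55% of tested genes were. Of those genes 47.2% were higher in replicate 2, 58.0% with the deposited values and 57.0% with median centring. Wnt5b was at -0.41 ± 0.14 (0.129). Single arrays moved Wnt5b from -0.62 (without dox 2; 0.0759) to -0.20 (without control 2; 0.514), and it was called without either replicate 3 array (0.0295). Wnt5a was at -0.40 ± 0.19 (0.245), between -0.73 (without control 1) and -0.07 (without dox 1). Replicate 3 minus replicate 2 was 1.40 ± 0.11 for Wnt8a (0.00528) and 0.70 ± 0.10 for Wnt3 (0.0229), with 2.56% of tested genes called. Replicate 3 minus replicate 1 was 0.08 ± 0.11 and -0.01 ± 0.10, with 0.0188% called. Replicate 2 was thus the low one for both genes. An F test over the 3 numbers called the same 2 members (limma adjusted p = 0.00392 for Wnt8a and 0.0202 for Wnt3; 4.78% of tested genes were called). With the arrays of this line alone neither was called (F test adjusted p = 0.102 and 0.175). The Wnt3 difference between replicates 2 and 1 lost its call without control 1 (-0.80; 0.0738), control 2 (-0.64; 0.0952) or dox 1 (-0.60; 0.131), and that of Wnt8a without dox 1 (-1.28; 0.0502). The F test lost Wnt8a without control 2 (0.0533) and Wnt3 without any single array but control replicate 3 and dox replicate 3 of this line (up to 0.132).

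Replicate 2 of both lines had other marker levels that moved with these ligands. In the knockdown line the visceral endoderm list had a mean of 9.14 and 8.93 on its control and dox array, against 7.86 to 8.34 on the other 4. The streak mean was 7.45 and 7.83 there, against 8.22 to 9.15, and the pluripotency mean 10.40 and 10.12, against 9.47 to 10.07. Against replicate 1, 11 of 12 visceral endoderm genes were higher (7 called) and 10 of 11 streak genes lower (5 called). Of 12 pluripotency genes 8 were higher (3 called) and 4 lower, Pou5f1 and Nanog among these. Of all 15950 tested genes 569 were called higher and 636 lower. Day 5 replicate 2 of the overexpression line had lateral mesoderm means of 9.33 and 9.38 against 8.57 and 8.78 in replicate 1, and pluripotency means of 10.14 and 10.38 against 9.35 and 9.49. Its streak means were 9.13 and 9.07 against 9.96 and 9.85. There 11 of 11 streak genes were lower and 5 were called lower, as were 893 of all 15950 tested genes. Of 12 lateral mesoderm genes 11 were higher (8 called). Of 12 pluripotency genes 9 were higher (6 called) and 3 lower, and 1286 of all tested genes were called higher. The part of these markers in the ligand differences was not tested.

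**Figure D3:**
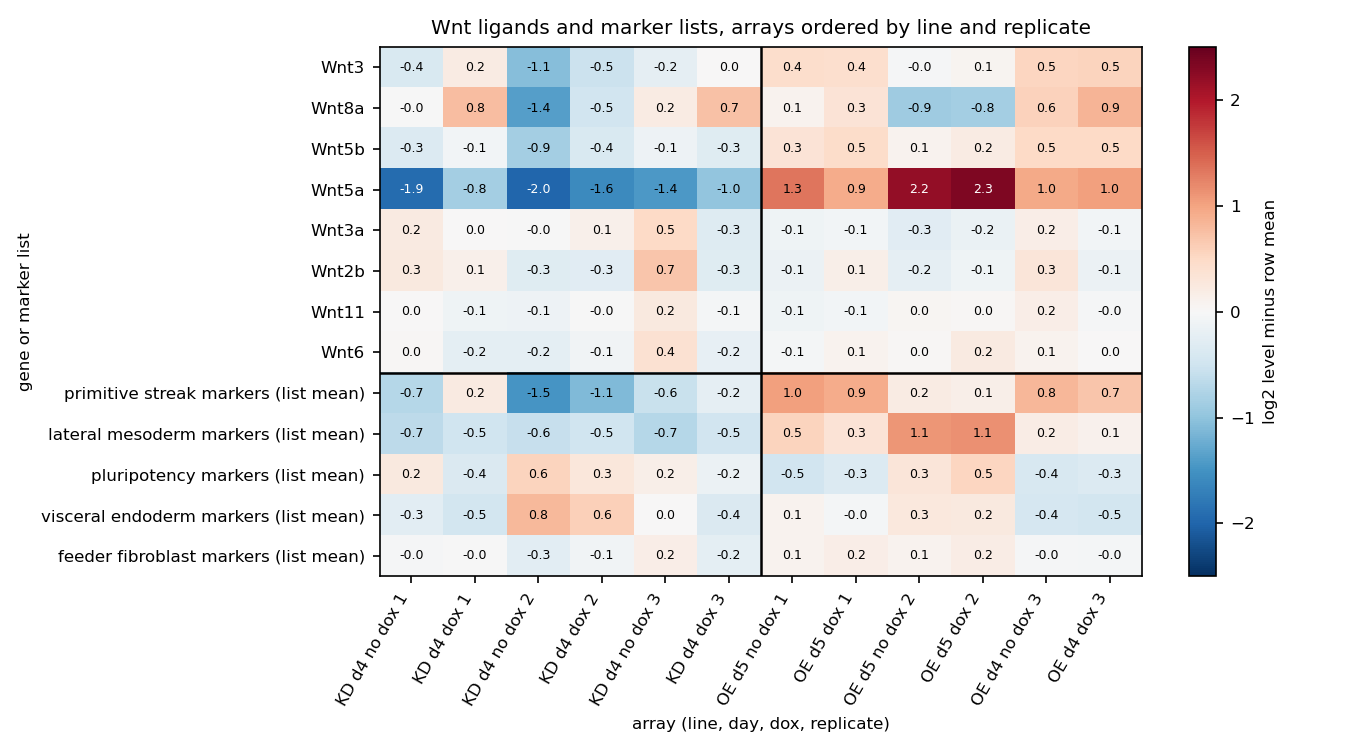
Log2 level of each ligand (upper 8 rows) and mean level of 5 marker lists (lower rows), each minus its mean over the 12 arrays (columns, ordered by line and then replicate number, knockdown line left); red is above and blue below the row mean, as the printed values give. Within the knockdown line replicate 2 is low for Wnt3, Wnt8a and streak markers and high for visceral endoderm markers, and in the overexpression line day 5 replicate 2 is high for Wnt5a and lateral mesoderm markers and low for Wnt8a.

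Across arrays some of the ligands followed each other. The following correlations describe 12 arrays of 2 lines that share replicate numbers and normalization, so they carry no p. Wnt3 and Wnt5b had a Pearson r of 0.94 over all 12 arrays, 0.91 over the 6 of the knockdown line and 0.96 over the 6 of the overexpression line. Wnt3 and Wnt8a had r of 0.99 and 0.97 within the lines but 0.70 over all, with lower Wnt8a in the overexpression line at a like Wnt3 level. In the overexpression line, where all Wnt5a values were above the filter level, Wnt5a had r of -0.95 with Wnt3 and -0.96 with Wnt8a. In the knockdown line the values were 0.88 and 0.84, but 4 of those 6 Wnt5a levels are under the filter level, so little can be read from them. Among the other genes, Wnt11 and Wnt6 had r of 0.99 in the knockdown line and 0.45 in the overexpression line, and Wnt3a and Wnt2b 0.82 and 0.86.

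**Figure D4:**
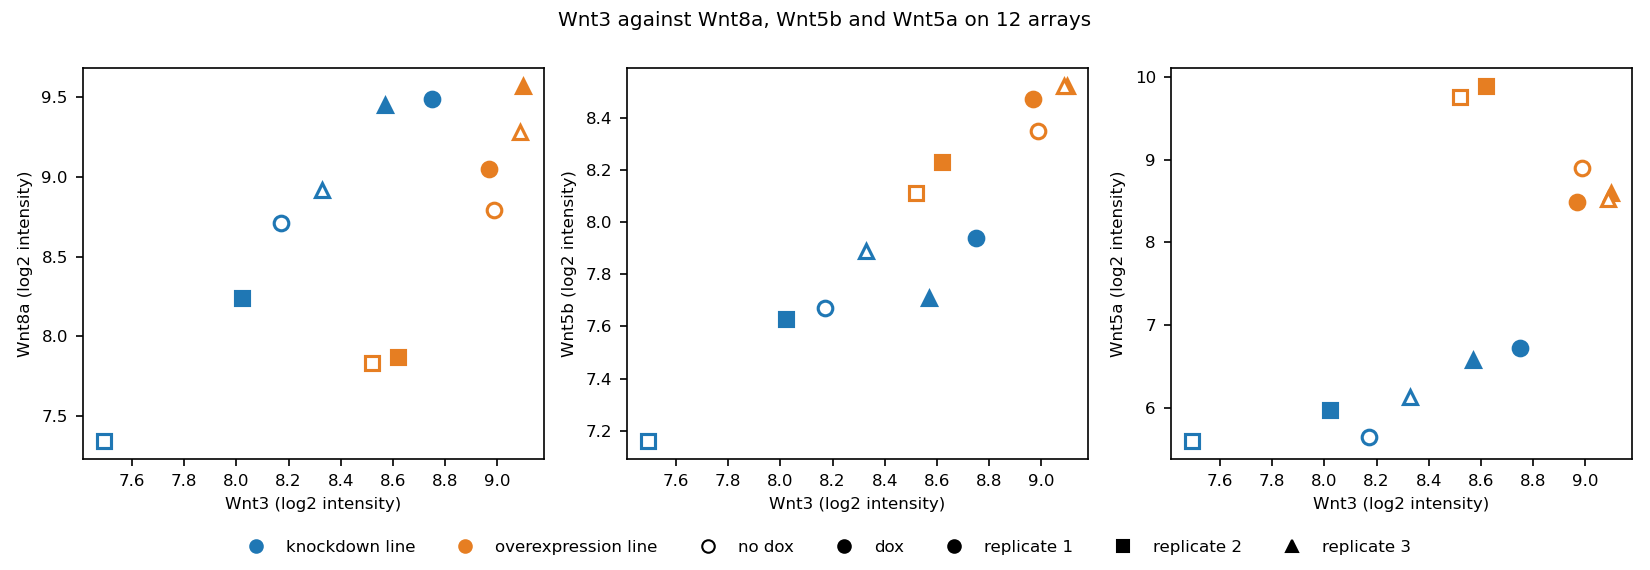
Log2 intensity of Wnt3 (horizontal axis) against Wnt8a, Wnt5b and Wnt5a (vertical axes); each point is 1 array, blue for the knockdown and orange for the overexpression line, open without and filled with dox, shaped by replicate number. Wnt3 and Wnt5b lie along a common band (r = 0.94), Wnt3 and Wnt8a along 1 band per line, and in the overexpression line Wnt5a is higher where Wnt3 is lower (r = -0.95); 4 of the 6 knockdown-line values of Wnt5a are under the filter level of 6.46.

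The tested genes whose profiles over the 12 arrays were most like those of the 4 ligands with a range over 1 unit were picked by Pearson r. For Wnt3 they were Eomes, a T-box factor of the streak (r = 0.977), Pdlim3 (0.974) and Slit3 (0.971). Wnt3 had r = 0.97 with the mean of the streak list, which holds Eomes, and 0.98 and 0.87 within the lines. For Wnt5b they were Naa60 (0.969), Alox15 (0.966) and Evx1, a homeobox factor of the streak (0.961). In the same order these had r of 0.94, 0.91 and 0.82 within the knockdown line. Within the overexpression line they had 0.71, 0.93 and 0.97. For Wnt8a they were Mkx (0.971), the ephrin receptor gene Epha1 (0.970) and Gba2 (0.965), with r of -0.90 against the visceral endoderm list. For Wnt5a they were the homeobox gene Msx1 (0.989), the imprinted gene Peg3 (0.989) and Gata3 (0.987). Within the overexpression line these had r of 0.97, 0.99 and 0.99. Within the knockdown line, where most Wnt5a levels are under the filter level, they had 0.93, 0.86 and 0.73. Wnt5a had r = 0.96 with the lateral mesoderm list, which holds Msx1, but 0.53 within the knockdown line, where that list hardly varied.

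The remaining genes of the pathway were described by role. Of the other Wnt ligands, 10 of 11 were tested and 0 were called in any of the comparisons of dox, day, line or replicate numbers 2 and 1 by limma, and at an unadjusted p under 0.05 there were 1 for dox in the knockdown line, 1 for line, and 1 and 2 for replicates of the overexpression and knockdown line, where 14.1% and 13.6% of tested genes were lower. The nearest to a dox effect was Wnt9a, the neighbour of Wnt3a, at -0.37 ± 0.14 in the knockdown line (limma adjusted p = 0.965). Wnt9b, beside Wnt3, stood between 7.96 and 8.56 on all arrays and differed by -0.27 ± 0.21 between the lines, where Wnt3 differed by -1.08. With dox, 0 genes were called in either line among 4 secretion and processing genes, 17 receptors, 9 R-spondin and receptor turnover genes, 12 secreted antagonists, 17 cytoplasmic transducers, 12 response genes and 14 polarity genes. With dox in the knockdown line 1 of these had an unadjusted p under 0.05 in each direction: Rspo3, a secreted agonist (0.64 ± 0.27), and Dkk3 (-0.40 ± 0.18). There were 10 of 12 response genes on the higher side (median 0.27, against 0.01 over all tested genes), none with an unadjusted p under 0.05. With dox in the overexpression line, where Gmnn was higher, also 10 of 12 were on the higher side (median 0.07, against 0.01). None of the genes in these lists had an unadjusted p under 0.05 for dox in that line.

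Between the lines on day 4 without dox, limma called 49 of all 15950 tested genes (0.307%), 43 of them lower in the knockdown line. Of the pathway lists above, 1 of 9 R-spondin and receptor turnover genes, 1 of 12 secreted antagonists and 2 of 12 response genes were called, all 4 lower. They were Rspo3 (-2.31 ± 0.32; limma adjusted p = 0.0203), the secreted inhibitor Dkk1 (-1.56 ± 0.24; 0.0305), and the presomitic mesoderm factors Msgn1 (-1.37 ± 0.16; 0.0149) and Tbx6 (-1.05 ± 0.15; 0.0249). The response genes, which share Sp5 with the streak list, were lower in 11 of 12 cases, with a median of -1.10. Frzb, a secreted Wnt-binding inhibitor, was at -2.81 ± 0.65 (0.127), and of 17 receptors 14 were lower (median -0.29), with 0 called. These 4 calls rest on the same day 4 arrays as the Wnt5a call: without the overexpression-line control array, or without its dox array, limma called 0 genes in this comparison (808 and 1042 had an unadjusted p under 0.05). On day 5 against day 4, Dkk1 was higher by 1.28 ± 0.20 (limma adjusted p = 0.0346), and Rspo3 was at 1.24 ± 0.28 (0.0796).

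Between replicates 2 and 1, several pathway genes went opposite ways in the lines. Axin2, a feedback inhibitor that canonical signalling induces, was at -0.76 ± 0.09 in the knockdown line (limma adjusted p = 0.00655) and at 0.91 ± 0.09 in the overexpression line (0.00352). Wls, the carrier that takes Wnt proteins to the cell surface, was at -0.87 ± 0.10 (0.00616) and 0.46 ± 0.10 (0.0279), and Rspo3 at -0.73 ± 0.09 (0.00777) and 0.53 ± 0.09 (0.0140). Notum, an enzyme that removes the lipid of Wnt proteins, was higher in replicate 2 of the overexpression line by 1.16 ± 0.16 (0.00833). Frzb was lower in replicate 2 of both lines, at -1.06 ± 0.23 (0.0375) and -1.59 ± 0.23 (0.00862), and Sfrp2, another secreted inhibitor, higher at 0.62 ± 0.09 (0.0140) and 0.64 ± 0.09 (0.00852). Of the 12 response genes 4 were called lower in replicate 2 of the knockdown line, as were 636 of all 15950 tested genes. In replicate 2 of the overexpression line 5 were called higher, as were 1286 of all 15950. The difference between lines in these replicate differences was not tested, and nothing ties replicate 2 of 1 line to replicate 2 of the other.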

How the data were processed

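Labelled sense-strand target from 1 µg of total RNA was hybridised, per the labels' protocols. The authors deposited 1 linear intensity per probe set and array. The means of the 12 arrays were 677.3 to 696.6 and their medians 145.3 to 182.2; the sources used here do not give the summarisation or normalization. Values were taken as log2(intensity + 1) and quantile normalized over 35512 probe sets. The brightest of a gene's probe sets stood for it, and genes with a mean under the 20th percentile (log2 6.46) were not tested. Limma 3.58.1 in R 4.3.3 fitted a baseline for each line and day and 1 dox effect for each line, with no replicate block (7 residual degrees of freedom). Replicate numbers were compared in a fit with a baseline for each line and number. P-values were adjusted over 15950 genes. Precision is limited by how few arrays there are. The steps were tested on simulated arrays.

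The members and gene lists were chosen with earlier results of these data known. Pathway genes were named as the up to 2 smallest p per list and comparison, and Gmnn was named as the target. For each member with a range of at least 1, the 3 genes with the highest r were named, leaving out predicted, olfactory, vomeronasal and small RNA genes. Postn, Lum, Col1a1, Wnt9b and, for replicates of the knockdown line, Pou5f1 and Nanog are named outside this rule, after their values were seen. Promoter sequences and motif shares come from RefSeq's GRCm38.p6 table. Wnt5a and Wnt8a are not in the sequences used here. Alternatives were other scalings, no filter, a pseudocount of 16, a replicate block, 1 line alone, a variance trend, array weights, day 5 alone, all probe sets of a gene, and leaving out each array. Leaving out both arrays of a replicate number was added after seeing the data.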

Additional observations from a re-analysis of the deposited data

How the results depend on the processing

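Over scalings, filters, pseudocount, trend, weights and single lines, no member was called for dox in either line. The Wnt5a call between lines held under every alternative except leaving out the arrays named with it. Directions turned in small differences. With the deposited values the dox effect in the overexpression line was 0.01 for Wnt3a and 0.02 for Wnt2b, the difference between lines for Wnt5b -0.02, and replicate 2 minus 1 of the knockdown line for Wnt11 0.02 (0.01 with median centring). The difference between lines for Wnt11 was 0.01 with median centring and 0.06 with array weights. Array weights also gave 0.07 for Wnt5a and -0.04 for Wnt6 (dox, overexpression line) and -0.01 for Wnt2b and Wnt6 (line). With day 5 alone the dox effect was 0.08 for Wnt3a, 0.01 for Wnt11 and 0.21 for Wnt2b. The cause was not tested in any of these.

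Counts of called genes moved as follows, against 1 for dox in each line, 89 for day, 49 for line, 2179 for replicates in the overexpression and 763 in the knockdown line. Line gave 30 with deposited values, and day 33 with median centring. With no filter, more genes being tested, day gave 27, line 29, and replicates 1417 and 367. With 1 line alone, fewer arrays being fitted, dox gave 0 in each line (433 and 188 at an unadjusted p under 0.05 in limma), day 19, and replicates of the knockdown line 0 (2496). A variance trend gave 178 for day and 2062 for replicates of the knockdown line. Array weights gave 201 for dox in the overexpression line, 2567 for day, 1170 for line and 4730 for its replicates, with Wnt8a (0.0311) and Wnt5a (0.0297) called for day and Wnt3 (0.0126) and Wnt5b (0.00444) for line beside Wnt5a. Day 5 alone gave 0 for dox in that line (84 unadjusted). For the trend and weights the cause was not tested.

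Same-numbered control and dox arrays deviated together from their group means with r of 0.60, 0.44 and 0.05 in the knockdown line. Arrays of unlike number there had r of -0.50 to 0.02. On day 5 this r was 0.79, which is 1 value, as 2 arrays deviate from their mean by opposite amounts. In the knockdown line each control correlated best with the dox array of its own number, replicate 3 only barely (0.05 against 0.02). The labels do not tell whether equal numbers mark paired cultures, and the main dox fits had no replicate block. Differences between replicate numbers therefore count in their spread: for Wnt8a in the knockdown line the SE was 0.49 without the block and 0.09 with it. With a replicate block, no member was called for dox: in the knockdown line limma's adjusted p was 0.159 for Wnt8a, 0.199 for Wnt3 and 0.287 for Wnt5a. These 3 then had an unadjusted p under 0.05, for dox in that line and for the difference between the lines' dox effects, where no member had one without the block. Genes at an unadjusted p under 0.05 went from 599 to 1941 there, from 149 to 572 in the overexpression line and from 340 to 1384 for the difference. The block gave 1710 calls for day, with Wnt8a (0.00272) and Wnt5a (0.0438), and 1182 for line, with Wnt3 (0.00238), Wnt8a (0.00445) and Wnt5b (0.0143) beside Wnt5a; these set single replicate numbers against the spread within pairs only.

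Leaving out 1 array or 1 replicate number gave 0 to 1 calls for dox in each line, 0 to 148 for day, 0 to 80 for line, and 14 to 3240 and 42 to 1997 for replicates of the overexpression and knockdown lines. Members that turned ranged as follows. Dox in the knockdown line: Wnt5b -0.02 to 0.36. Dox in the overexpression line: Wnt3 -0.10 to 0.16, Wnt8a -0.13 to 0.55, Wnt5a -0.45 to 0.35, Wnt3a -0.10 to 0.08, Wnt11 -0.13 to 0.01 and Wnt2b -0.17 to 0.21. Difference between lines: Wnt5b -0.11 to 0.26 and Wnt11 -0.12 to 0.06. Day: Wnt11 -0.21 to 0.01, Wnt2b -0.50 to 0.17 and Wnt6 -0.11 to 0.16. Line: Wnt11 -0.16 to 0.09, Wnt2b -0.12 to 0.57 and Wnt6 -0.11 to 0.23. Replicates of the knockdown line: Wnt3a -0.40 to 0.27, Wnt11 -0.18 to 0.14 and Wnt6 -0.35 to 0.24. Replicates of the overexpression line: Wnt2b -0.39 to 0.07.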
